A study of Cricetulus griseus with 3 samples.

Results

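AP-1 is a family of transcription factors that bind DNA as pairs of Fos, Jun and Atf proteins, and its RNAs were followed here across microtubule structures isolated from CHO cells, an ovary line of the Chinese hamster (Cricetulus griseus). Members were the transcripts whose best human protein match in the deposited table was FOS, FOSB, FOSL1, FOSL2, JUN, JUNB, JUND or ATF3. Of these 8 proteins, 6 were found, with 1 transcript each, among 21607 RefSeq transcripts, so the rule that ties be chosen by the largest sum of reads decided nothing. FOSL1 and JUND were not analysed here. The 6 members are called Fos (P01100), Fosb (P53539), Fosl2 (P15408), Jun (P05412), Junb (P17275) and Atf3 (P18847) after these matches. The transcript of Fos also carried that symbol in RefSeq, and the names of the other 5 rest on the human match alone. The family was selected on measured values, since high midbody ratios of Fos and Atf3 were known from these data beforehand, so its levels and ratios are given as a description.

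Each of the 3 groups was 1 library of poly-A RNA. For interphase microtubules, cells spent 16 h in 2 mM thymidine, an arrest of DNA replication. For mitotic microtubules, cells had the same 16 h in thymidine, were released for 5 h, spent 4 to 5 h in 0.1 ug/ml nocodazole, a blocker of microtubule assembly, and were then shaken off and kept in fresh medium for 15 min. Midbodies, which bridge daughter cells as division ends, followed the same route with 65 min in fresh medium. Thymidine was thus common to all 3 groups, whereas release, nocodazole, shake-off and fresh medium were given for mitotic and midbody samples only. No whole-cell RNA was analysed here, so RNA held on a structure and RNA abundant in the cells cannot be told apart, nor can the structure isolated and the time in fresh medium. With 1 library per group there is no replicate error and no test. The intervals below are exact 95% intervals on the reads, and they cover counting error only.

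Fos and Jun proteins pair through a leucine zipper and bind AP-1 sites in promoters and enhancers. Fos proteins need a Jun partner to bind, Jun proteins can also pair with each other, and Atf3 pairs with itself or with Jun proteins. Fos, Fosb, Jun, Junb and Atf3 are immediate early or stress-induced genes: serum and growth factors raise their RNA within minutes without new protein synthesis, and Fos RNA is short-lived because AU-rich elements in its untranslated end recruit decay factors.

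Libraries held 12672056 reads for interphase microtubules, 8059745 for mitotic microtubules and 5134865 for midbodies, so the midbody values carry the least depth. VIM, the intermediate filament gene of fibroblast-like cells, stood between 168 and 239 RPKM (reads scaled to transcript length and library total) in the 3 libraries. COL1A1, a collagen gene of fibroblasts, and the markers of blood (PTPRC), liver (ALB), glia (GFAP) and muscle (DES) had at most 5 reads in any library, and PTPRC was at 0 in all 3. Reads of all 6 members were whole numbers in every library (within 1e-06 reads), as when no read is divided between transcripts, which held for 76.5% of all transcripts. The lengths of all 6 models were multiples of 3, against 63.7% of the 18792 transcripts with a known length. They ran from 546 bases for Atf3 to 1827 bases for Jun. Whether these models hold untranslated ends was not tested. E-values of the human matches ran from 4e-158 for Fos to 1e-23 for Junb, so the Junb, Jun (7e-30) and Fosb (2e-39) names rest on weaker matches than that of Fos.

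Most members were far more abundant in midbodies than in the mitotic library. On the log2(RPKM + 1) scale, 5 of the 6 were higher by 2-fold or more and 0 lower by 2-fold or more, against 2.09% and 1.80% of the 13131 transcripts compared. Atf3, Fos and Fosb were higher by 4-fold or more, a size reached by 0.183% of transcripts, or 24 in all. Their log2 ratios ranked 2, 3 and 4 from the top of the table in that order. The median log2 ratio was 2.34 over the 6 members and -0.03 over all transcripts compared. Fosl2 ranked 42, Jun 57 and Junb 484.

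**Figure D1:**
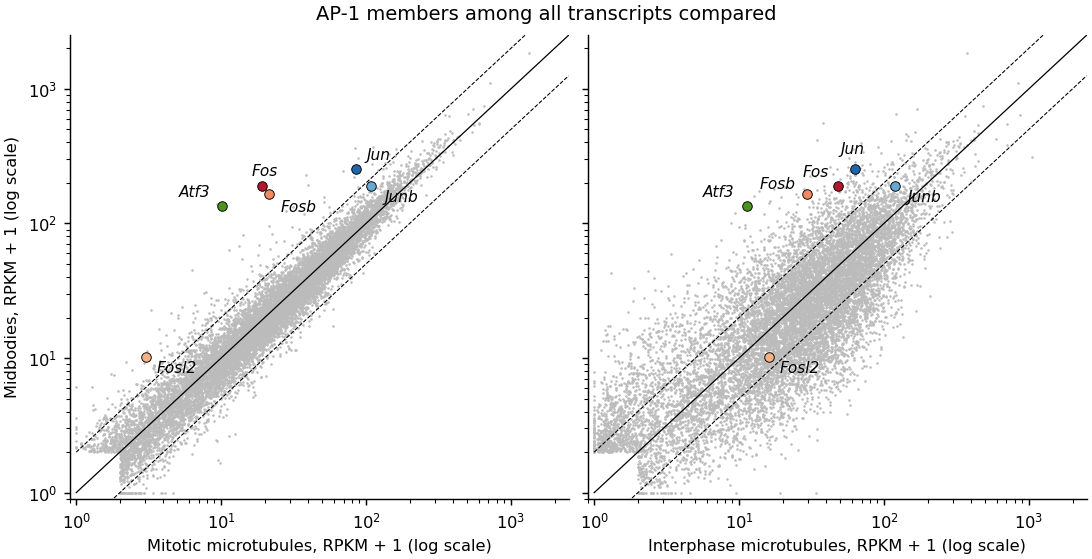
RPKM + 1 of each transcript in midbodies (vertical) against mitotic microtubules (left panel) and interphase microtubules (right panel), on log axes; each grey point is 1 transcript that reached 1 RPKM in a plotted library, coloured points are the 6 AP-1 members, the solid line marks equal levels and dashed lines 2-fold. In the left panel 5 members lie above the upper dashed line and Junb lies under it; in the right panel Fosl2 lies below the solid line.

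Fos, the founding member and the partner of Jun in the classical AP-1 complex, had 47.3 RPKM in interphase microtubules, 18.3 in mitotic microtubules and 188 in midbodies. The midbody value was the highest and the mitotic value the lowest, with no overlap of the counting intervals. These levels came from 687 interphase, 169 mitotic and 1104 midbody reads. Midbodies were 10.3-fold above mitotic microtubules (interval 8.71 to 12.1) and 3.97-fold above interphase microtubules (3.60 to 4.37) in CPM, the reads divided by the library total. Mitotic microtubules were below interphase microtubules by a factor of 2.59 (2.18 to 3.08). Fos moved in level rank among transcripts at 1 RPKM or more: it was number 3537 in interphase, number 7001 in mitotic microtubules and number 242 in midbodies.

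Fosb, a close relative of Fos with its own short and long protein forms, had 28.4 RPKM in interphase microtubules, 20.5 in mitotic microtubules and 164 in midbodies. Its order of libraries was that of Fos, with a smaller gap between the mitotic and interphase values. It was higher in midbodies by 7.97-fold over mitotic microtubules (6.58 to 9.73) and by 5.76-fold over interphase microtubules (5.00 to 6.66). The mitotic level was below the interphase level by a factor of 1.38 (1.12 to 1.72). Against interphase, the Fosb ratio of midbodies was larger than that of Fos, and their intervals did not overlap.

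Fosl2, which encodes Fra-2, a Fos protein that lacks the strong activation domain of Fos, was the least abundant member in mitotic microtubules and midbodies and differed from the others in its pattern. It had 15.0 RPKM in interphase microtubules, 2.04 in mitotic microtubules and 9.22 in midbodies, from 185 interphase, 16 mitotic and 46 midbody reads. Interphase was the highest of the 3. Midbodies were 4.51-fold above mitotic microtubules, with a wide interval of 2.51 to 8.54. Its log2(RPKM + 1) ratio there was 1.75, or 1.01 with a pseudocount of 5. Midbodies were below interphase microtubules by a factor of 1.63 (1.17 to 2.30), and mitotic microtubules by a factor of 7.35 (4.41 to 13.1). Fosl2 was the only member of the 6 with a midbody level below that of interphase.

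**Figure D2:**
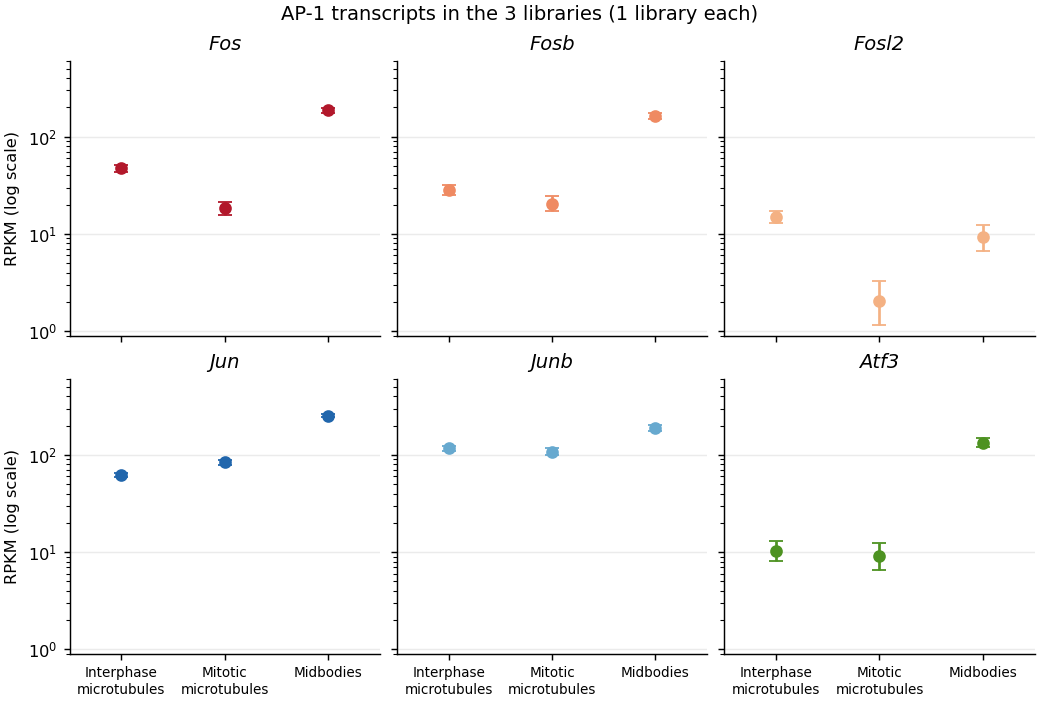
RPKM on a log axis for each of the 6 AP-1 members in the interphase, mitotic and midbody libraries (1 library each); bars are exact 95% Poisson intervals of the reads and cover counting error only. Midbodies hold the highest point for 5 members, from 134 RPKM for Atf3 to 253 RPKM for Jun, and for Fosl2 the interphase point is the highest at 15.0 RPKM.

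Jun, the main partner of Fos and the target of the JNK kinases, had 62.1 RPKM in interphase microtubules, 83.7 in mitotic microtubules and 253 in midbodies. It was the only member of the 6 whose mitotic level lay above its interphase level, by 1.35-fold (1.25 to 1.46). Midbodies were 3.03-fold above mitotic microtubules (2.82 to 3.24) and 4.08-fold above interphase microtubules (3.82 to 4.36). Jun carried 2375 reads in midbodies and ranked 119 there by level. Relative to the size of the ratio, its intervals were the narrowest of the family.

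Junb, a Jun protein that activates AP-1 sites more weakly than Jun, was the flattest member. It had 117 RPKM in interphase microtubules, 108 in mitotic microtubules and 189 in midbodies. Midbodies were higher than mitotic microtubules by 1.75-fold (1.56 to 1.96) and than interphase microtubules by 1.61-fold (1.46 to 1.78), short of 2-fold in both cases. The mitotic to interphase ratio of 0.922 had an interval of 0.831 to 1.02, which holds a ratio of 1. The intervals of Jun and Junb did not overlap in any of the 3 comparisons.

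Atf3, a stress-induced factor that represses many promoters as a pair with itself and activates others together with Jun proteins, had 10.3 RPKM in interphase microtubules, 9.09 in mitotic microtubules and 134 in midbodies. The interphase and mitotic levels, from 71 and 40 reads, had overlapping intervals, and the midbody level, from 375 reads, stood far above both. Its ratio was 14.7 over mitotic microtubules (10.6 to 20.9) and 13.0 over interphase microtubules (10.1 to 17.0). On the log2(RPKM + 1) scale, the Atf3 ratio of midbodies over interphase microtubules ranked 20 from the top among 13059 transcripts. By level, Atf3 was number 9587 in interphase, number 9329 in mitotic microtubules and number 543 in midbodies.

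**Figure D3:**
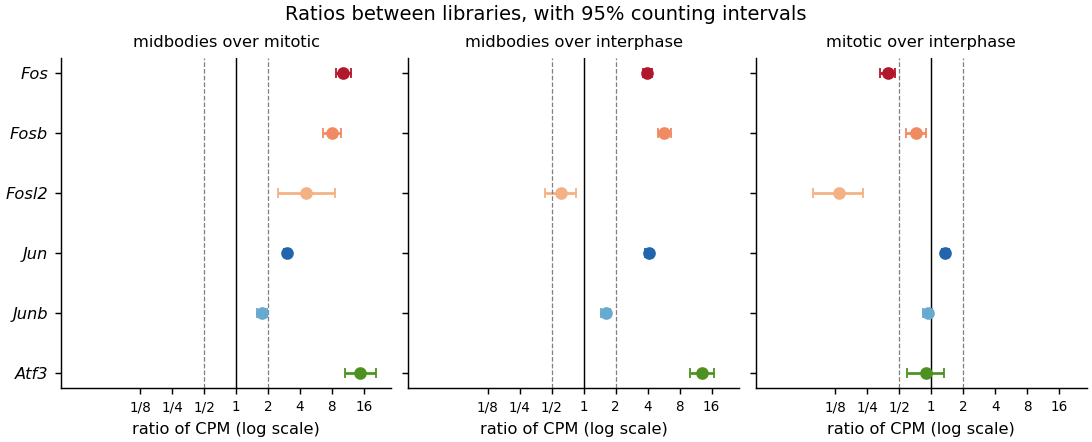
Ratio of CPM between libraries for each AP-1 member on a log axis, with exact 95% Clopper-Pearson intervals that cover counting error only; the solid line marks a ratio of 1 and dashed lines 2-fold in each direction. Over mitotic microtubules the midbody ratios run from 1.75 for Junb to 14.7 for Atf3, and over interphase microtubules from 0.614 for Fosl2 to 13.0 for Atf3.

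Across the family, the order of the midbody to mitotic ratios was Atf3, Fos, Fosb, Fosl2, Jun and Junb. Neighbours from Atf3 down to Jun had overlapping intervals, so the order of neighbours within that run is uncertain, although Atf3 and Jun themselves did not overlap. Junb stood apart from Jun. Over interphase microtubules, 4 of 6 members were higher in midbodies by 2-fold or more (Fos, Fosb, Jun and Atf3) and 0 lower by that much, against 14.7% and 20.8% of 13059 transcripts. The median log2 ratio there was 1.99 over the members and -0.15 over all transcripts. Those 4 members passed 2-fold over each of the other libraries, as did 0.770% of the 12865 transcripts compared in both. The comparisons share the midbody library, so they are not independent of each other.

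Between mitotic and interphase microtubules, 0 of 6 members were higher by 2-fold or more and 2, Fos and Fosl2, lower by 2-fold or more, against 16.6% and 20.7% of 13176 transcripts. A count of 2 in 6 is not far from that background. Jun had a log2 ratio of 0.42, Junb -0.12, Atf3 -0.16 and Fosb -0.45, and the median was -0.30 over the members and -0.13 over all transcripts. The Jun and Junb levels thus lay within 2-fold of interphase in the mitotic library, as did those of Fosb and Atf3.

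RPKM is scaled by the length of each transcript model, so levels were set side by side within a library. Such sums, shares and orders hold only if the models cover like parts of each RNA, which was not tested. Model lengths ran from 546 bases for Atf3 to 1827 bases for Jun, with 672 for Junb. The sum over the 6 members was 280 RPKM in interphase microtubules, 242 in mitotic microtubules and 937 in midbodies, so midbodies held 3.88 times the mitotic and 3.34 times the interphase sum. The 3 Fos family members together had 90.7 RPKM in interphase microtubules, 40.9 in mitotic microtubules and 360 in midbodies. The 2 Jun family members had 179 RPKM in interphase microtubules, 192 in mitotic microtubules and 442 in midbodies. The Fos family sum was 8.82 times as high in midbodies as in mitotic microtubules, and the Jun family sum 2.31 times.

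**Figure D4:**
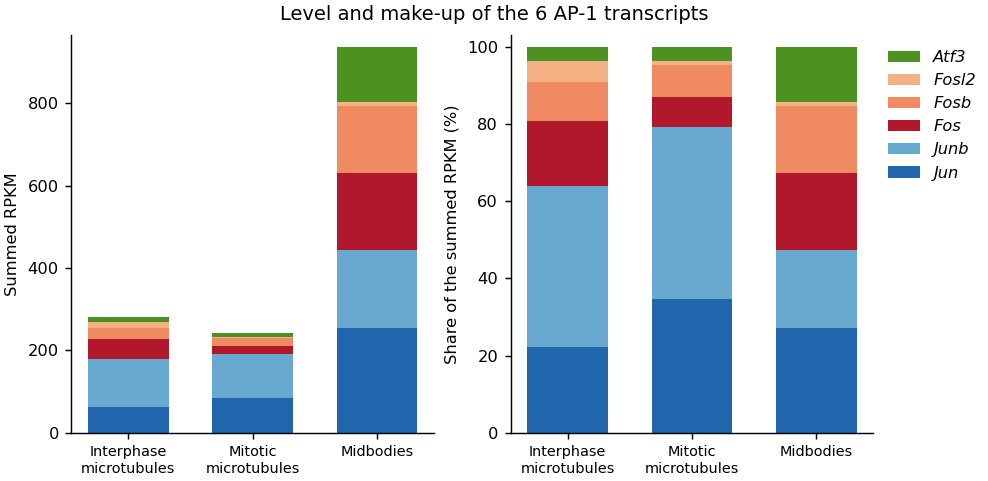
Summed RPKM (left) and share of the sum in percent (right) of the 6 AP-1 members in the interphase, mitotic and midbody libraries, with 1 colour per gene. The Jun and Junb segments make up 79.3% of the mitotic bar and 47.2% of the midbody bar, and the Atf3 segment grows to 14.3% in midbodies.

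The make-up of the sum differed between the libraries. Jun family members supplied 64.0% in interphase microtubules, 79.3% in mitotic microtubules and 47.2% in midbodies. Fos family members supplied 32.4% in interphase microtubules, 16.9% in mitotic microtubules and 38.5% in midbodies. Atf3 supplied 3.66% in interphase microtubules, 3.76% in mitotic microtubules and 14.3% in midbodies. Expressed per unit of Jun family RPKM, Fos family RPKM was 0.506 in interphase microtubules, 0.213 in mitotic microtubules and 0.815 in midbodies. The Fos to Jun ratio alone was 0.762 in interphase microtubules, 0.219 in mitotic microtubules and 0.741 in midbodies, so interphase microtubules and midbodies had similar values for that pair while their levels differed. Junb was the most abundant member in interphase microtubules (41.8% of the sum) and in mitotic microtubules (44.7%), and Jun the most abundant in midbodies (27.0%).

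In descending level, interphase microtubules had Junb, Jun, Fos, Fosb, Fosl2 and Atf3, and the last of these neighbours, Fosl2 and Atf3, had overlapping counting intervals. Mitotic microtubules had Junb, Jun, Fosb, Fos, Atf3 and Fosl2, with overlap between Fosb and Fos. Midbodies had Jun, Junb, Fos, Fosb, Atf3 and Fosl2, with overlap between Junb at 189 and Fos at 188 RPKM and between Fos and Fosb. All other neighbours in these orders were apart by more than counting error. These intervals leave out any error from the model lengths, which differ between genes.

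Transcripts were also ranked by the distance of their pattern from that of Fos over the 3 libraries, measured in the plane of the log2 ratios of midbodies over mitotic and of mitotic over interphase microtubules. Among 10169 candidates outside the family with at least 10 RPKM and 50 reads in their highest library, the nearest was XM_003499390.1, with human match CSF2 (P04141), the growth factor GM-CSF. It lay at a distance of 0.62 and had 24.3 RPKM in interphase microtubules, 8.33 in mitotic microtubules and 138 in midbodies. The next was XM_003514528.1 (human match P22736) at 0.90, with 49.0 RPKM in interphase microtubules, 13.3 in mitotic microtubules and 81.4 in midbodies. Further on, XM_003505756.1 (P78543) lay at 1.07 and XM_003510471.1 (P04083) at 1.16. For comparison, Fosb lay at 0.94, Atf3 at 1.25, Fosl2 at 1.88, Jun at 2.44 and Junb at 2.76 from Fos.

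The rest of the pathway was read from 4 lists of human proteins, of which the table gives only the UniProt identifiers. These lists were written with earlier results of these data known, so their counts and medians are given as a description. Among 19 measured genes known as AP-1 targets in human or mouse cells, 4 passed 2-fold on the log2(RPKM + 1) scale upwards in midbodies relative to the mitotic library and 0 downwards, where 2.09% and 1.80% of all transcripts did. A 0 is thus what the background gives. The median log2 ratio was 0.30, against -0.03 over all transcripts. CSF2, whose ratio was known when the list was written, was 16.6-fold higher (11.3 to 25.2). The matrix protease gene MMP9 was higher by 2.31-fold (2.10 to 2.54) and the chemokine gene CCL2 by 2.23-fold (2.05 to 2.42). The other transcript matched to CCL2, of lower E-value, had 0 reads in all 3 libraries. The last of the 4 was DUSP1, a phosphatase that switches off MAP kinases, with 2.08-fold (1.86 to 2.33). The other 15 target genes were within 2-fold on that scale. For IL6, a cytokine gene, this held at a log2 ratio of 0.89, while its CPM ratio was 2.11 (1.27 to 3.54). The count of 4 varied with the settings in both directions. It rose to 5 when 0.1 instead of 1 was added to RPKM, and fell to 3 when 5 was added. Taking the transcript of lowest E-value for each human match also gave 3. All remaining alternatives left it at 4. Also among the 15 were the heme oxygenase gene HMOX1 at 296 RPKM in midbodies and 279 in mitotic microtubules and the protease inhibitor gene TIMP1 at 416 RPKM in midbodies and 404 in mitotic microtubules.

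Against interphase microtubules, 4 of 20 targets were past 2-fold upwards in midbodies and 1 downwards, where 14.7% and 20.8% of all transcripts were, so the upward count is near the background. The median log2 ratio was 0.01 over the targets and -0.15 over all transcripts. The 4 were CSF2 at 5.68-fold (4.62 to 7.01), the growth factor gene HBEGF at 3.18-fold (2.78 to 3.62), IL6 at 2.92-fold (1.79 to 4.79) from 39 midbody and 33 interphase reads, and the DNA methyltransferase gene DNMT1 at 2.67-fold (2.58 to 2.76). The cyclin D1 gene CCND1 was the lower one, with a log2 ratio of -1.54. The protease gene MMP13, from 2 midbody and 20 interphase reads, had a log2 ratio of -0.79, and by CPM its midbody to interphase ratio was 0.247 (0.0280 to 1.02). MMP9, higher in midbodies than in mitotic microtubules, was below interphase microtubules by a factor of 1.66 (1.55 to 1.78), at 86.1 RPKM in midbodies and 143 in interphase. Of the 4 higher ones, HBEGF and DNMT1 were also above interphase in mitotic microtubules, by 2.29-fold (2.01 to 2.60) and 2.17-fold (2.10 to 2.23). IL6 had a mitotic to interphase ratio of 1.38 (0.809 to 2.35). CSF2 was lower in mitotic than in interphase microtubules by a factor of 2.92 (1.94 to 4.52). HBEGF, IL6, DNMT1, CCND1, MMP13, HMOX1 and TIMP1 were named after their values had been seen.

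**Figure D5:**
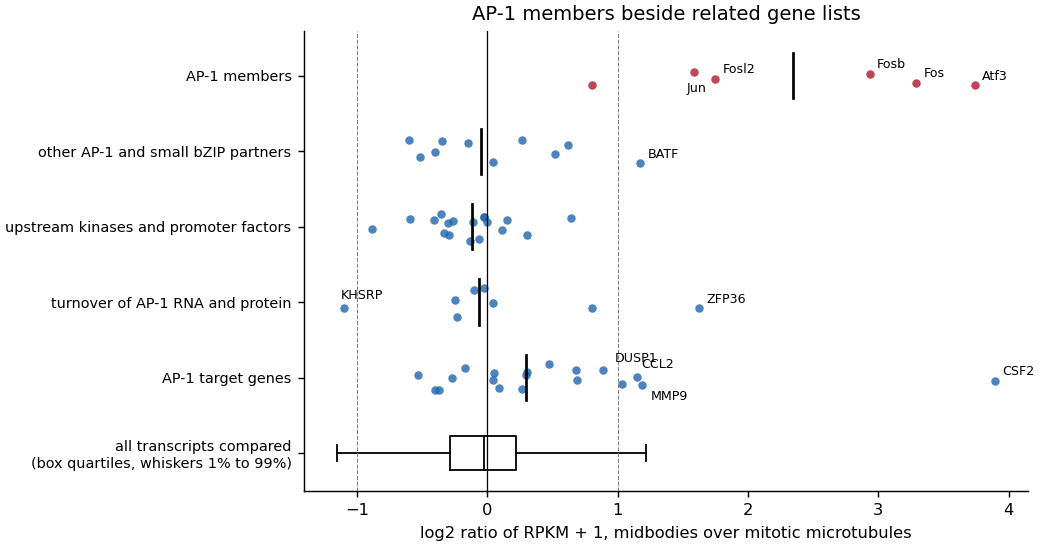
Log2 ratio of RPKM + 1 in midbodies over mitotic microtubules for each measured gene of the AP-1 family and the 4 related lists; each point is 1 gene, black ticks are medians, dashed lines mark 2-fold, and the box at the bottom shows all 13131 transcripts compared. The median is 2.34 for the AP-1 members, 0.30 for target genes and -0.12 for upstream kinases and promoter factors.

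Of the upstream kinases and promoter factors, 0 of 18 passed 2-fold in either direction between midbodies and mitotic microtubules, as the 2.09% and 1.80% of all transcripts would give. Their median log2 ratio was -0.12. SRF, the serum response factor that binds the Fos promoter, had 75.0 RPKM in interphase microtubules, 13.5 in mitotic microtubules and 21.6 in midbodies. Its midbody level was 1.60-fold above the mitotic one (1.31 to 1.95). The stress kinase p38 (MAPK14) was lower by a factor of 1.88 (1.58 to 2.26), the ERK-activated kinase RSK1 (RPS6KA1) by 1.53 (1.34 to 1.74) and its relative RSK2 (RPS6KA3) by 1.35 (1.22 to 1.49). Against interphase microtubules, 8 of 18 were lower in midbodies by 2-fold or more and 0 higher by that much, where 20.8% and 14.7% of all transcripts were. SRF had a log2 ratio of -1.75 there, and MAPK14 was lower by a factor of 4.40 (3.76 to 5.19).

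Of 8 factors that govern the decay of AP-1 RNA or protein, 1 passed 2-fold upwards and 1 downwards in midbodies relative to the mitotic library, beside 2.09% and 1.80% of all transcripts, with a median log2 ratio of -0.06. ZFP36, the tristetraprolin gene whose product binds AU-rich elements and speeds RNA decay, was 3.12-fold higher (2.86 to 3.41), at 157 RPKM in midbodies and 50.2 in mitotic microtubules. KHSRP, another decay factor of AU-rich RNA, was lower by a factor of 2.17 (1.93 to 2.45). The ubiquitin ligase gene FBXW7, which targets Jun protein for degradation, was 1.78-fold higher (1.59 to 1.99), with reads partly divided between 2 transcripts. ITCH, another ligase for Jun proteins, was lower by a factor of 1.19 (1.11 to 1.28). Against interphase microtubules, ZFP36 and FBXW7 passed 2-fold upwards in midbodies, and KHSRP and ELAVL1, which encodes the stabilising protein HuR, downwards. Among all transcripts 14.7% did so upwards and 20.8% downwards, so 2 of 8 in each direction is near the background. ELAVL1 was named after its value had been seen.

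Other AP-1 and small bZIP partners differed in level, from 0 RPKM for CREB5 to 80.7 RPKM for MAFG in midbodies. CREB5 and MAFG were named after their values had been seen. Of 14 listed, 13 had a transcript and 10 reached 1 RPKM in midbodies or mitotic microtubules. Of these, 1 passed 2-fold upwards in midbodies relative to the mitotic library and 0 downwards, beside 2.09% and 1.80% of all transcripts, with a median log2 ratio of -0.05. That gene was BATF, a Jun partner of lymphoid cells, at 3.63 RPKM in midbodies and 1.05 in mitotic microtubules, from 11 and 5 reads, and its ratio of 3.45 had an interval of 1.11 to 12.7. ATF7, a relative of ATF2, had a midbody level below the mitotic one by a factor of 1.55 (1.35 to 1.77). For ATF1, of the CREB family, the factor was 1.45 (1.19 to 1.77). Against interphase microtubules, 6 of 10 were lower in midbodies by 2-fold or more and 0 higher by that much, where 20.8% and 14.7% of all transcripts were. The largest gap among the named genes was that of MAFK, a small Maf protein gene, at 7.26 RPKM in midbodies and 52.8 in interphase microtubules.

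Between mitotic and interphase microtubules, 20.7% of all transcripts were lower and 16.6% higher at 2-fold in the mitotic library. On the lists, lower were 5 of 10 bZIP partners, 8 of 18 upstream genes, 1 of 8 turnover factors and 4 of 20 targets. Higher were 3 targets and 0 genes of the other lists. The target and turnover counts are at or under the background. SRF was among the lower ones, by a factor of 5.55 (4.80 to 6.44).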

How the data were processed

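The authors deposited 1 table of 21607 RefSeq transcripts with 3 libraries, 1 per group. Its estimated counts are the authors' unnormalized reads, fractional where a read is divided, and its RPKM values are the authors' own, per the file headers. Each transcript's best human protein and E-value came from the authors' BLASTX, per the file headers (largest E-value 1e-20). Aligner, counter and build were not given in the sources used here. Metaphase columns were read as the Mitosis sample.

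Members were picked by human identifier, with the transcript of most reads per identifier. Log2 ratios used RPKM + 1 over transcripts that reached 1 RPKM in either library compared. Folds with intervals are ratios of CPM with exact Clopper-Pearson 95% limits, and level intervals are exact Poisson. Intervals cover counting error only, since each group had 1 library. The reads carry no molecular identifiers, so copies of the same molecule may count as separate reads and the intervals may be too narrow. A listed 0 is compatible with up to 3 reads, or 0.237 CPM in interphase, 0.372 in mitotic and 0.584 in midbody libraries. Strand use is not stated, so overlapping genes may share reads. Symbols of RefSeq assembly CriGri-PICRH-1.0 matched 1 of the 6 members by accession. Other names were paired with UniProt identifiers by hand.

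The members and lists were chosen with earlier results of these data known. By rule, the genes named were all members, up to 4 per list with the largest absolute midbody to mitotic log2 ratio, and the 5 transcripts nearest to Fos, 1 of which is not reported here. Other genes were named after their values were seen, as the text says. Alternatives were pseudocounts of 0.1 and 5, no floor and a floor of 10 RPKM, median of ratios and trimmed mean of M values scaling, CPM, and the summed or lowest E-value transcripts per identifier. Python 3.11.15, pandas 2.3.3 and SciPy 1.17.1 were used.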

Additional observations from a re-analysis of the deposited data

How the results depend on the processing

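No paired analysis was possible because each group had 1 library, and for the same reason no library could be left out. The AP-1 counts stayed within 1.5 times of those reported under all 9 alternatives: the 5 members past 2-fold in midbodies over mitotic microtubules became 4 with a floor of 10 RPKM, which removes Fosl2, and the 3 past 4-fold became 4 with a pseudocount of 0.1. Of 161 member ratios recomputed, 0 changed sign and 5 left their counting interval, all with a pseudocount of 5. Several alternatives could not move a member ratio. Each member had 1 transcript, so summing transcripts or taking the lowest E-value changed nothing. All members reached 1 RPKM, so removing the floor changed nothing, and a higher floor can only drop a member. Results under these settings were fixed in advance and say nothing about stability. With a pseudocount of 5, the midbody log2 ratios over mitotic microtubules became 3.05 for Fos, 3.30 for Atf3 and 1.01 for Fosl2. With that same pseudocount, Atf3 in midbodies over interphase became 3.18 and Fosl2 in mitotic over interphase microtubules -1.51. The 1 bZIP partner past 2-fold between midbodies and mitotic microtubules, BATF, gave a count of 0 with a pseudocount of 5, with a floor of 10 RPKM and with CPM. The 5 partners past 2-fold between mitotic and interphase microtubules became 3 with a pseudocount of 5. The midbody library is the shallowest, and Fosl2, with 16 mitotic reads, has the least certain ratios of the family. The folds depend on 1 library per stage, and variation between preparations is unknown.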
